A study of Mus musculus with 10 samples.

Results

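Mertk, Axl and Tyro3, the TAM receptors, and their ligand genes Gas6 and Pros1 were followed across 10 RNA sequencing libraries of clone 4T1-T. These 5 genes were taken by name from the 23479 gene entries of the deposited table. The set was chosen by its readout, since Mertk was lower with both knockdowns, and the question is whether Axl or Tyro3 took other values in the same lines. Mertk against control is therefore given as a description with no test.

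4T1 is a line of mouse mammary cancer cells kept in culture, and 4T1-T is a population derived from 1 of its cells, so every group shares that 1 clone. The tested groups were infected with a short hairpin RNA against Serpine2 (shSerpine2-1 or shSerpine2-2) or against Slpi (shSlpi-1 or shSlpi-2), and the control group with a hairpin against Renilla luciferase (shRenilla), a gene mouse cells lack. Serpine2 and Slpi encode secreted inhibitors of serine proteases. Each group had 2 libraries, A and B. Whether A and B were grown as independent cultures is not stated, so a p-value here reflects the spread between libraries, which may be technical.

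TAM receptors are receptor tyrosine kinases. Gas6 and protein S, the product of Pros1, carry a vitamin K dependent Gla domain that binds phosphatidylserine on dying cells, and their other end binds the receptor. Gas6 activates all TAM receptors, whereas protein S activates Tyro3 and Mertk and is also a plasma anticoagulant. Mertk is best known from macrophages and retinal pigment epithelium, where it drives uptake of dying cells or shed membrane. Axl is known in carcinomas for invasion and drug resistance, and Tyro3 is most abundant in brain.

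Start regions of Mertk and Axl are printed because their transcripts took different courses in the same cells. Each window holds 250 bases before and 50 bases after the RefSeq start on GRCm38.p6 and reads 5′ to 3′ along the gene, at chr2:128698665-128698964 (plus strand) and chr7:25788684-25788983 (minus strand). Capitals mark matches, on either strand, to GGGCGG (GC box) or GGAATG (TEAD).
Mertk: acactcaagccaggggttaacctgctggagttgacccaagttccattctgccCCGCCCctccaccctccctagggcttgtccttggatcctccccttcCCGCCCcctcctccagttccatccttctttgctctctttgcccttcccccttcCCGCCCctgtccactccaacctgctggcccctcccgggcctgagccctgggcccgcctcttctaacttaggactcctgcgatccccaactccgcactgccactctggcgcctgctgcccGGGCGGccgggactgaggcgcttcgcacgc
Axl: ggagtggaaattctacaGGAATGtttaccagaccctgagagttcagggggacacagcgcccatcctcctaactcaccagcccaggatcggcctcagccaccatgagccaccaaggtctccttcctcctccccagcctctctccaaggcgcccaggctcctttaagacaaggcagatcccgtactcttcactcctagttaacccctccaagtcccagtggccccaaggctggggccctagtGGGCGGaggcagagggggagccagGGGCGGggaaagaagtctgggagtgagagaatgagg
The Mertk window held 4 GC boxes and 14 CpG dinucleotides, and the Axl window held 2 GC boxes, 1 TEAD match and 6 CpG. The windows of Tyro3, Gas6 and Pros1 held 6, 4 and 5 GC boxes and 31, 17 and 21 CpG. The RefSeq start used for Tyro3 (window 119799264 to 119799563) lies inside the GENCODE gene given below, downstream of its first base. Among 32851 windows of the same length the median was 7 CpG, 35.7% had a GC box and 14.7% had a TEAD match. The TATA box (TATAAA) and the AP-1 motif (TGA and TCA around any single base) were also searched on both strands and had 0 matches in the windows of all 5 genes, against 13.6% and 7.81% of all windows. Matches in these 2 windows did not overlap. They are descriptions of the letters, not sites shown to be used.

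Depth ran from 15877431 to 24026620 reads per library. Values are normalized reads recovered from the deposited log2 values, and n = 2 libraries stands behind each mean ± SD. The targets checked the labels. Serpine2 averaged 134 ± 7.94 with shSerpine2-1 and 501 ± 17.5 with shSerpine2-2, against 3201 ± 79.1 in shRenilla. Slpi averaged 146 ± 1.09 with shSlpi-1 and 68.3 ± 10.5 with shSlpi-2, against 1251 ± 87.6 in shRenilla. Each inhibitor also had lower means in the lines against the other. Serpine2 stood at 1336 ± 7.76 with shSlpi-1 and 1642 ± 126 with shSlpi-2. Slpi stood at 370 ± 62.3 with shSerpine2-1 and 1164 ± 75.6 with shSerpine2-2. The libraries of shSerpine2-2 (1111 and 1218) overlapped those of shRenilla (1189 and 1313). The shSlpi-2 libraries stood apart, with a chi-square between A and B of 9.66 per degree of freedom, against 1.51 to 2.64 in the other groups. Rn45s, the ribosomal RNA precursor, took 6.88% to 6.91% of their reads, against 1.00% to 1.21% in shRenilla.

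Mertk (chromosome 2, 128698956 to 128802894, plus strand, GRCm38) was low in every knockdown library. It had 39.0 and 41.8 normalized reads with shSerpine2-1 and 47.4 and 49.8 with shSerpine2-2. With shSlpi-1 it had 36.3 and 58.3 and with shSlpi-2 33.8 and 23.7, against 101 and 85.9 in shRenilla. All 8 knockdown libraries lay below both shRenilla libraries, which is the pattern the gene was chosen for. All 4 libraries lay on 1 side of both shRenilla libraries for 37.7% of tested genes with Serpine2 hairpins and for 40.1% with Slpi hairpins.

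The hairpin means of Mertk were 43.2% of shRenilla with shSerpine2-1, 51.9% with shSerpine2-2, 50.5% with shSlpi-1 and 30.7% with shSlpi-2. On the log2(normalized reads + 1) scale, used for all changes here, the differences from shRenilla were -1.06 (SE 0.21) over both Serpine2 hairpins and -1.34 (SE 0.21) over both Slpi hairpins. For single hairpins they were -1.19, -0.93, -1.0 and -1.68 (SE 0.25 each) in the order of the percentages. The 4 comparisons share the shRenilla libraries and are not independent of each other. In bulk RNA, fewer cells with a transcript and less transcript per cell cannot be told apart.

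Few reads stand behind these values. Mertk had 25 to 65 reads per knockdown library, against 96 and 78 in shRenilla. The shSlpi-1 library B had 56 reads (exact Poisson 95% interval 42.3 to 72.7), against 78 (61.7 to 97.3) in shRenilla library B, and such intervals cover counting error only. The libraries of shSlpi-1 differed more from each other (47.3 ± 15.5) than those of shSerpine2-1 (40.4 ± 1.99) or shSerpine2-2 (48.6 ± 1.67).

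Comparisons without shRenilla were not themselves used to choose Mertk and were tested with limma, adjusted over 12299 genes, a gene being called at an adjusted p under 0.05. The choice did use the knockdown values of both targets, so these comparisons are not fully independent of it. Serpine2 hairpins minus Slpi hairpins gave 0.29 for Mertk (95% interval -0.08 to 0.66, adjusted p = 0.276). The difference shSerpine2-1 minus shSerpine2-2 was -0.26 (-0.78 to 0.26, adjusted p = 0.516). That of shSlpi-1 minus shSlpi-2 was 0.68 (0.16 to 1.20, adjusted p = 0.0519), short of the threshold. Single libraries moved it both ways, to 1.02 without shSlpi-1 library A (adjusted p = 0.0191), 0.93 without shSlpi-2 library A (adjusted p = 0.0114) and 0.35 without shSlpi-1 library B (adjusted p = 0.449).

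**Figure D1:**
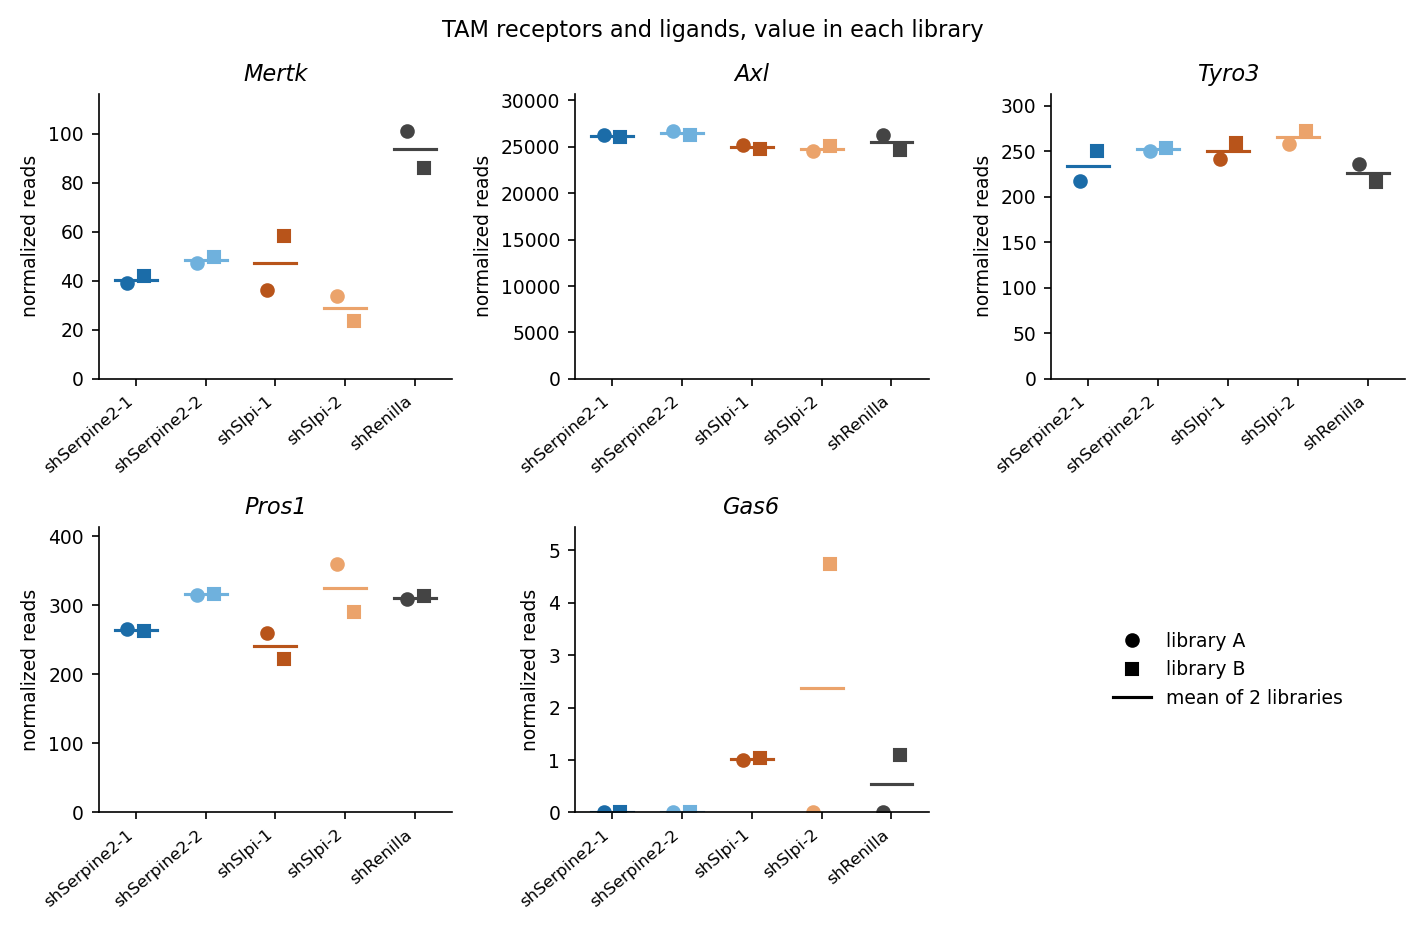
Normalized reads of the 5 genes in each library (circles, library A; squares, library B; line, mean of 2 libraries), knockdown groups left and shRenilla right. Mertk lies at 23.7 to 58.3 in the knockdown libraries, below 85.9 and 101 in shRenilla, whereas Axl lies between 24538 and 26714 in all of them.

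Axl (chromosome 7, 25757273 to 25788705, minus strand) was by far the most abundant TAM transcript and kept a narrow range. It had 26297 and 26033 normalized reads with shSerpine2-1 and 26714 and 26213 with shSerpine2-2. It had 25215 and 24799 with shSlpi-1 and 24538 and 25042 with shSlpi-2, against 26271 and 24625 in shRenilla. The shRenilla libraries span most of this range, and knockdown and shRenilla values overlap for each hairpin.

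Axl was not called in either knockdown. Over both Serpine2 hairpins it differed from shRenilla by 0.05 (SE 0.04, 95% interval -0.04 to 0.13, adjusted p = 0.415), with 2 of 4 libraries above both shRenilla libraries. Over both Slpi hairpins the difference was -0.03 (SE 0.04, -0.12 to 0.05, adjusted p = 0.59), a sign that turned under quantile normalization (0.0057). The intervals hold rises of up to 9.72% and 3.81%. For single hairpins the difference ran from -0.04 to 0.06, with adjusted p from 0.384 to 0.767. Serpine2 hairpins minus Slpi hairpins gave 0.08 (0.01 to 0.15, adjusted p = 0.102). That difference was called without shSlpi-2 library A (0.07, adjusted p = 0.041), without shSlpi-2 library B (0.09, adjusted p = 0.0172) and on total reads (0.10, adjusted p = 0.0336).

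Tyro3 (chromosome 2, 119797733 to 119818104, plus strand) lay slightly above control in most knockdown libraries without passing the test. It had 217 and 251 normalized reads with shSerpine2-1 and 250 and 254 with shSerpine2-2. It had 242 and 259 with shSlpi-1 and 258 and 273 with shSlpi-2, against 236 and 216 in shRenilla. Above both shRenilla libraries lay 7 of 8 knockdown libraries, the exception being shSerpine2-1 library A. No share of all genes was computed for that count, and the 8 libraries share the same control pair. All 4 Slpi libraries lay there, beside the 40.1% of tested genes that separate in either direction in that comparison.

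The Tyro3 difference from shRenilla was 0.10 over both Serpine2 hairpins (SE 0.09, 95% interval -0.09 to 0.30, adjusted p = 0.462). Over both Slpi hairpins it was 0.19 (SE 0.09, -0.01 to 0.39, adjusted p = 0.126). The highest single hairpin was shSlpi-2 at 0.23 (SE 0.11, 0.00 to 0.46, adjusted p = 0.0941), and those of shSerpine2-1, shSerpine2-2 and shSlpi-1 were 0.05, 0.16 and 0.15. Neither target's hairpin pair nor the targets differed by the test (adjusted p 0.464 to 0.611).

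Counts of members are read against all genes. With Serpine2 hairpins 0 of the 3 tested members were called (adjusted p 0.415 to 0.473), where 21.5% of all tested genes were, 10.7% higher and 10.8% lower. With Slpi hairpins it was 0 of 3 (adjusted p 0.126 to 0.59), where 34.8% were, 16.5% higher and 18.3% lower. For single hairpins the called members were 0 of 3 with shSerpine2-1 (background 10.5%), 0 of 3 with shSerpine2-2 (27.5%), 1 of 3 with shSlpi-1 (17.5%) and 0 of 3 with shSlpi-2 (42.4%). With Mertk included, 0 of 4 were called for Serpine2 against Slpi hairpins (17.5%), 0 of 4 between the Serpine2 hairpins (14.7%) and 1 of 4 between the Slpi hairpins (26.1%). Both calls were of Pros1.

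**Figure D2:**
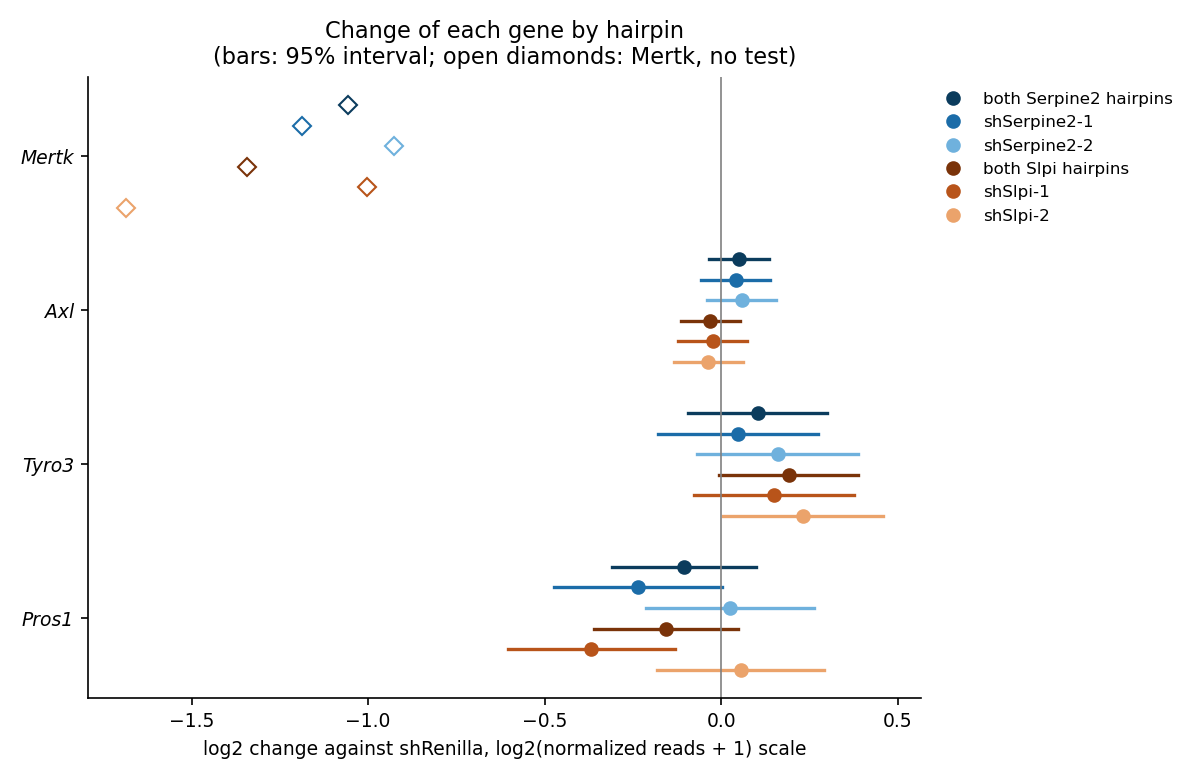
Difference from shRenilla on the log2(normalized reads + 1) scale for each target and hairpin, with the 95% interval of limma for Axl, Tyro3 and Pros1. Open diamonds give Mertk, with no test, at -1.68 to -0.93, and of the 18 tested values that of Pros1 with shSlpi-1 (-0.37) was the 1 called.

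Levels of different genes were set side by side per kilobase of annotated exon. In shRenilla, Axl stood at 5056 ± 231 normalized reads per kb, Pros1 at 76.0 ± 0.73, Tyro3 at 36.5 ± 2.29 and Mertk at 21.6 ± 2.48. Among 11564 tested genes with a length, ordered by this level in shRenilla, Axl was 67th, Pros1 6815th, Tyro3 8523rd and Mertk 9448th. Neighbours in the order of the members were separated in both shRenilla libraries, and Tyro3 lay closest to Mertk. In the knockdown lines that distance widened through Mertk, with Tyro3 per kb at 4.05, 3.63, 3.89 and 6.70 times Mertk with shSerpine2-1, shSerpine2-2, shSlpi-1 and shSlpi-2, against 1.70 times in shRenilla.

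The level of the 3 receptors summed per kb was 4925 to 5359 over the 10 libraries. Axl made up 98.8% to 99.2% of it in each. Mertk made up 0.109% to 0.270% in the knockdown libraries, against 0.442% and 0.401% in shRenilla. Tyro3 made up 0.665% to 0.876% in the knockdown libraries, against 0.721% and 0.704% in shRenilla. A summed level that rests on Axl carries almost no trace of Mertk.

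For Axl and Tyro3, the transcript rise equal to the shortfall of Mertk in normalized reads per kb was computed. It equates RNA levels only, as receptor protein and function were not measured. Mertk lay 11.3 normalized reads per kb under shRenilla over the Serpine2 hairpins and 12.8 over the Slpi hairpins. That equals 0.224% and 0.253% of the Axl level, far inside the Axl intervals, so such a rise of Axl was not detectable at this spread. For Tyro3 it equals a rise of 31.0% and 35.1%, or 0.39 and 0.43 on the log2 scale. With the longest annotated transcript as the length the matching rises were 22.5% and 25.5% (0.29 and 0.33), so the size depends on the gene model. The Tyro3 intervals above end at 0.30 and 0.39. These sizes come from the Mertk values that chose the set, whose differences carry an SE of 0.21, and are set beside Tyro3 as a description, with no test.

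**Figure D3:**
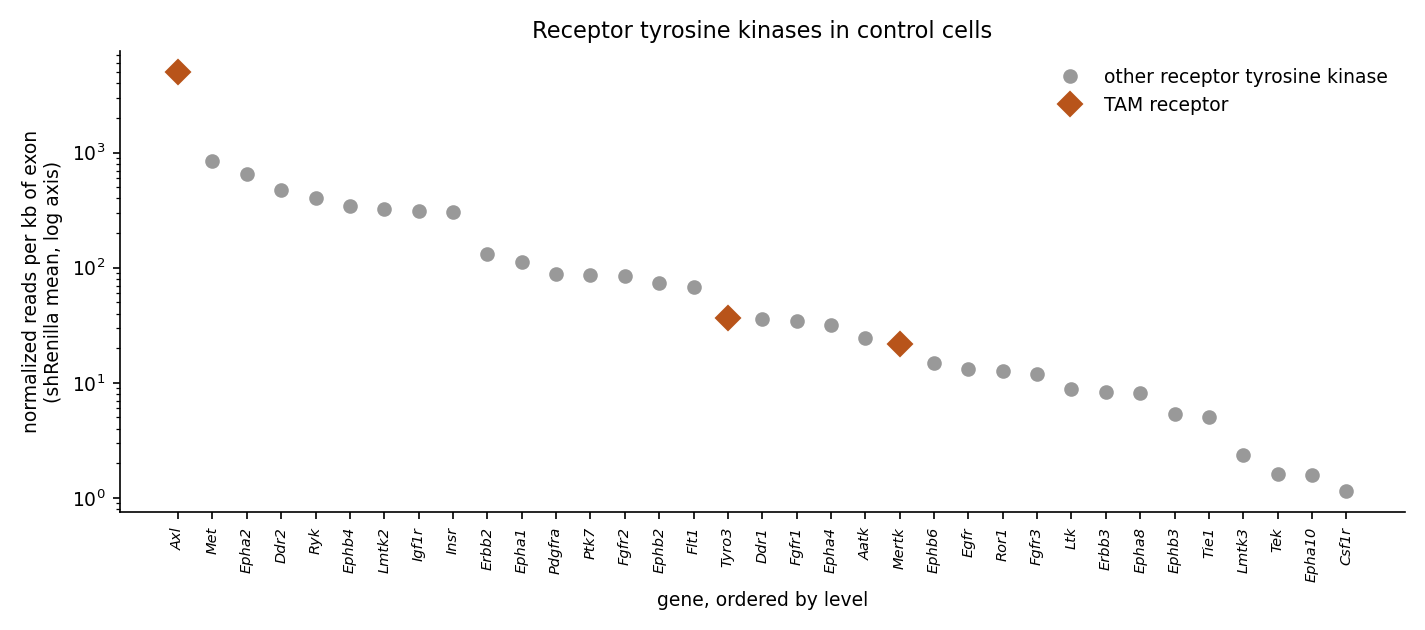
Level in shRenilla of the 35 receptor tyrosine kinase genes above 1 normalized read per kb of exon, ordered by level on a log axis, each point the mean of 2 libraries. Axl stands at 5056, ahead of Met at 853, with Tyro3 in rank 17 and Mertk in rank 22 (orange diamonds).

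Pros1 (chromosome 16, 62854307 to 62929346, plus strand) was the ligand with substantial reads. It was called in neither target and was lower with shSlpi-1. It had 265 and 262 normalized reads with shSerpine2-1, 315 and 317 with shSerpine2-2, 260 and 223 with shSlpi-1, and 360 and 290 with shSlpi-2, against 309 and 313 in shRenilla. Both libraries of shSerpine2-1 and of shSlpi-1 lay below shRenilla, both of shSerpine2-2 lay just above, and those of shSlpi-2 fell on either side. How many of all genes separate in this way for a single hairpin was not computed, so these positions are a description only.

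Over both hairpins the Pros1 difference from shRenilla was -0.11 for Serpine2 (SE 0.10, 95% interval -0.31 to 0.10, adjusted p = 0.473) and -0.16 for Slpi (SE 0.10, -0.36 to 0.05, adjusted p = 0.229). Pros1 fell with shSlpi-1 (-0.37, SE 0.11, -0.60 to -0.13, adjusted p = 0.0317), and stood at 0.05 with shSlpi-2 (adjusted p = 0.728), -0.24 with shSerpine2-1 (adjusted p = 0.202) and 0.02 with shSerpine2-2 (adjusted p = 0.893). The 2 Slpi hairpins differed by the test (shSlpi-1 minus shSlpi-2, -0.42, SE 0.11, -0.66 to -0.19, adjusted p = 0.011). The Serpine2 hairpins gave -0.26 (-0.50 to -0.02, adjusted p = 0.128), called without shSlpi-2 library B (-0.26, adjusted p = 0.0475) and with the compared libraries only (-0.26, adjusted p = 0.0325). Between the targets the difference was 0.05 (-0.12 to 0.22, adjusted p = 0.699).

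Without a shSerpine2-2 library the shSlpi-1 difference of Pros1 stayed at -0.37, since that comparison does not use those libraries. Even so, these Pros1 calls depended on which libraries were in the fit. That of shSlpi-1 was lost without its library B (-0.26, adjusted p = 0.267), without shRenilla library A (-0.38, adjusted p = 0.118) or B (-0.36, adjusted p = 0.165) and without shSerpine2-2 library A (adjusted p = 0.0506) or B (adjusted p = 0.0504). That between Slpi hairpins was lost without shSlpi-1 library B (-0.31, adjusted p = 0.135) or shSlpi-2 library A (-0.27, adjusted p = 0.0917). Over both Slpi hairpins the Pros1 difference was -0.23 without shSlpi-2 library A and -0.08 without shSlpi-2 library B. Without both shSlpi-2 libraries only shSlpi-1 was left. Its difference from shRenilla was again -0.37 in that fit (limma adjusted p = 0.00521), which is not a result over both hairpins.

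Gas6 (chromosome 8, 13465374 to 13494490, minus strand) was nearly without reads. It had 0 reads in the 4 Serpine2 libraries, 1 and 1 in shSlpi-1, 0 and 5 in shSlpi-2, against 0 and 1 in shRenilla. At a count of 0 a library can still hide 3 reads, equal to 2.30 to 3.48 on the normalized scale. Gas6 failed the minimum mean of 10 normalized reads and was not tested, so 4 of the 5 members entered the fit. A fold change is not given. Its exon sequence overlaps that of Tmem255b on the other strand by 34 bases, and whether counting used strand is not given in the sources used here.

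Genes whose values followed Mertk most closely over the 10 libraries were Slc33a1, an acetyl-CoA transporter of the endoplasmic reticulum (Pearson r = 0.967), Fbxl20, an F-box protein (0.953), Fhl2, a LIM domain cofactor (0.947), Uhrf2, a ubiquitin ligase that reads DNA methylation (0.946), and Pcnx (0.944), ranked among 9773 genes. Fbxl20 averaged 367, 442, 397 and 360 with shSerpine2-1, shSerpine2-2, shSlpi-1 and shSlpi-2, against 619 in shRenilla. The group averages of the other four likewise lay highest in shRenilla, as in Slc33a1 with 817, 828, 822 and 755 in the same order, against 905. Nearest to Axl were Med17, a Mediator subunit (0.944), Wbp1l (0.907) and Gnl3l (0.906), whose averages were higher with each Serpine2 hairpin than with each Slpi hairpin. These coefficients were picked as the highest of many, over libraries that share depth and group, and describe likeness only.

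Other genes that recognise dying cells moved in both directions. Calls in this and the following lists are over both hairpins of a target, with 4 libraries from 2 lines. With each hairpin line as 1 unit instead, limma called 0 genes for Serpine2 (499 at an unadjusted p under 0.05) and 0 for Slpi (1281), which ends all of these calls. Of 17 tested receptors and bridging proteins, 4 rose and 2 fell with Serpine2 hairpins (median 0.13, against 0.00 over all genes) and 7 rose and 4 fell with Slpi hairpins (median 0.16, against -0.01), where 21.5% and 34.8% of all tested genes were called. Thbs1, a matrix protein that bridges phagocytes and dying cells, averaged 7061 ± 152 with shSerpine2-1, 7112 ± 245 with shSerpine2-2, 7200 ± 509 with shSlpi-1 and 6081 ± 276 with shSlpi-2, against 4938 ± 205 in shRenilla (0.52, adjusted p = 4.27e-06 for Serpine2; 0.42, adjusted p = 6.66e-06 for Slpi). Mfge8, which links phosphatidylserine to integrins, rose by 0.34 (adjusted p = 0.000165) and 0.42 (adjusted p = 5.9e-06). Its paralogue Edil3 fell by 0.60 (adjusted p = 0.00239) and 0.71 (adjusted p = 0.000275), averaging 134, 132, 136 and 111 in the 4 hairpin groups, against 204 in shRenilla. Calr, calreticulin, rose by 0.24 (adjusted p = 0.00103) and 0.30 (adjusted p = 6.32e-05). It averaged 4347, 5344, 4303 and 5834 in the 4 hairpin groups, against 4081 ± 142 in shRenilla, so that shSerpine2-1 and shSlpi-1 lay closer to shRenilla. Without both shSlpi-2 libraries, an alternative added after the data were seen, 5 rose and 3 fell. Here and in the following lists shSlpi-1 is then the only Slpi hairpin in that fit. No share of all genes is given for that fit, so its counts here and in the following lists have no background.

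The engulfment machinery of 18 tested genes had 1 rise and 0 falls with Serpine2 hairpins (median 0.00) and 2 rises and 5 falls with Slpi hairpins (median -0.08), beside 21.5% and 34.8% of all tested genes called. Becn1, an autophagy protein, rose in both (0.30, adjusted p = 0.00375 for Serpine2; 0.33, adjusted p = 0.000902 for Slpi). With Slpi hairpins Rab7, a GTPase of late endosomes, fell by 0.35 (adjusted p = 0.000232), Dock1, the exchange factor for Rac, by 0.41 (adjusted p = 0.000539), and Rac1 by 0.24 (adjusted p = 0.00214). Without both shSlpi-2 libraries the list had 1 rise and 5 falls, with no share of all genes for that fit.

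Phosphatidylserine exposure counted 0 rises and 2 falls among 10 tested genes with Serpine2 hairpins (median -0.08) and 1 rise and 4 falls with Slpi hairpins (median -0.14). Among all tested genes 21.5% were called with Serpine2 hairpins, 10.7% higher and 10.8% lower. With Slpi hairpins 34.8% were, 16.5% higher and 18.3% lower. The count with Serpine2 hairpins is near the background. Atp11a, a flippase, which carries phosphatidylserine back to the inner leaflet and so works against its exposure, fell in both (-0.25, adjusted p = 0.00162 for Serpine2; -0.30, adjusted p = 0.000139 for Slpi). With Slpi hairpins Ano6, a scramblase that exposes it, fell by 0.21 (adjusted p = 0.000881) and Tmem30a, a subunit of flippases, by 0.17 (adjusted p = 0.00568). Without both shSlpi-2 libraries there were 0 rises and 5 falls, with no share of all genes for that fit.

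The vitamin K cycle, which carboxylates Gas6 and protein S, had 0 called of 6 tested genes with Serpine2 hairpins (median -0.13) and 1 fall with Slpi hairpins (median -0.12), against 21.5% and 34.8% called among all tested genes. That gene was Nqo1, a quinone reductase (-0.59, adjusted p = 0.000134). Without both shSlpi-2 libraries there were 2 falls, with no share of all genes for that fit. Other proteins with a Gla domain or related carboxylation had 1 rise among 5 tested with Serpine2 hairpins and 2 rises and 1 fall with Slpi hairpins. In these fits 21.5% and 34.8% of all tested genes were called. The Slpi numbers were the same without both shSlpi-2 libraries, where no share of all genes is given. Prrg4, a membrane Gla protein, rose in both (0.31, adjusted p = 0.000332 for Serpine2; 0.21, adjusted p = 0.00252 for Slpi). With Slpi hairpins Mgp, an inhibitor of calcification, fell by 1.51 (adjusted p = 8.71e-05). It averaged 62.5 with shSlpi-1 and 27.2 with shSlpi-2, against 116 in shRenilla. It was also low with shSerpine2-1 (42.2) but not with shSerpine2-2 (135). Postn, periostin, rose by 1.80 with Slpi hairpins (adjusted p = 0.000413). Postn averaged 33.1 and 62.8 normalized reads with shSlpi-1 and shSlpi-2, against 12.3 in shRenilla.

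Signalling and shedding genes downstream of the receptors had 2 rises and 2 falls among 18 tested with Serpine2 hairpins (median 0.07) and 3 rises and 6 falls with Slpi hairpins (median 0.01; 3 and 5 without both shSlpi-2 libraries). With all libraries the called shares of all tested genes were 21.5% and 34.8%, and the list is near the first. Cblb, a ubiquitin ligase reported in mouse natural killer cells to act on TAM receptors, fell in both (-0.33, adjusted p = 0.000663 for Serpine2; -0.41, adjusted p = 2.95e-05 for Slpi). Ranbp9, a scaffold protein reported to bind Axl, also fell in both (-0.17, adjusted p = 0.0241; -0.40, adjusted p = 1.26e-05). Akt1, a kinase downstream of phosphoinositide 3-kinase, rose in both (0.25, adjusted p = 0.00136; 0.27, adjusted p = 0.000295). Grb2, an adaptor, also rose in both (0.22, adjusted p = 0.0336; 0.32, adjusted p = 0.00214). Pik3ca, a catalytic subunit of phosphoinositide 3-kinase, fell by 0.32 (adjusted p = 3.63e-05) with Slpi hairpins. The proteases that cleave Mertk and Axl from the surface, looked up after their values were seen, stood at 0.17 and 0.14 for Adam17 (adjusted p = 0.0609 and 0.0958) and 0.10 and 0.08 for Adam10 (adjusted p = 0.118 and 0.196).

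Axl also stood first among all receptor tyrosine kinases. It held 52.4% of the summed level per kb of 57 receptor tyrosine kinase genes in shRenilla, ahead of Met (853), Epha2 (650) and Ddr2 (478 normalized reads per kb). Of the 30 other receptor tyrosine kinases tested, 4 rose and 2 fell with Serpine2 hairpins (median 0.06) and 7 rose and 6 fell with Slpi hairpins (median 0.08). Of all tested genes 21.5% and 34.8% were called, so the count with Serpine2 hairpins is near the background. Ddr2, a collagen receptor, rose in both (0.23, adjusted p = 0.00978 for Serpine2; 0.24, adjusted p = 0.00424 for Slpi), as did Met, the receptor of hepatocyte growth factor (0.18, adjusted p = 0.0103; 0.18, adjusted p = 0.00627). Epha2, an ephrin receptor, rose in both (0.13, adjusted p = 0.0357; 0.18, adjusted p = 0.00403), averaging 3139, 3538, 3047 and 3885 with shSerpine2-1, shSerpine2-2, shSlpi-1 and shSlpi-2, against 3038 in shRenilla, so that shSerpine2-1 and shSlpi-1 lay close to shRenilla. Fgfr1, a receptor for fibroblast growth factors, fell in both (-0.52, adjusted p = 0.00229; -1.45, adjusted p = 5.8e-08), as did Pdgfra, a receptor for platelet-derived growth factor (-0.35, adjusted p = 0.00645; -0.68, adjusted p = 1.19e-05). Fgfr1 averaged 183 ± 1.07 with shSerpine2-1 and 308 ± 18.8 with shSerpine2-2, against 341 ± 19.9 in shRenilla. Most of its fall with Serpine2 hairpins thus came from shSerpine2-1. Without both shSlpi-2 libraries 2 rose and 7 fell with shSlpi-1 alone, with no share of all genes for that fit.

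**Figure D4:**
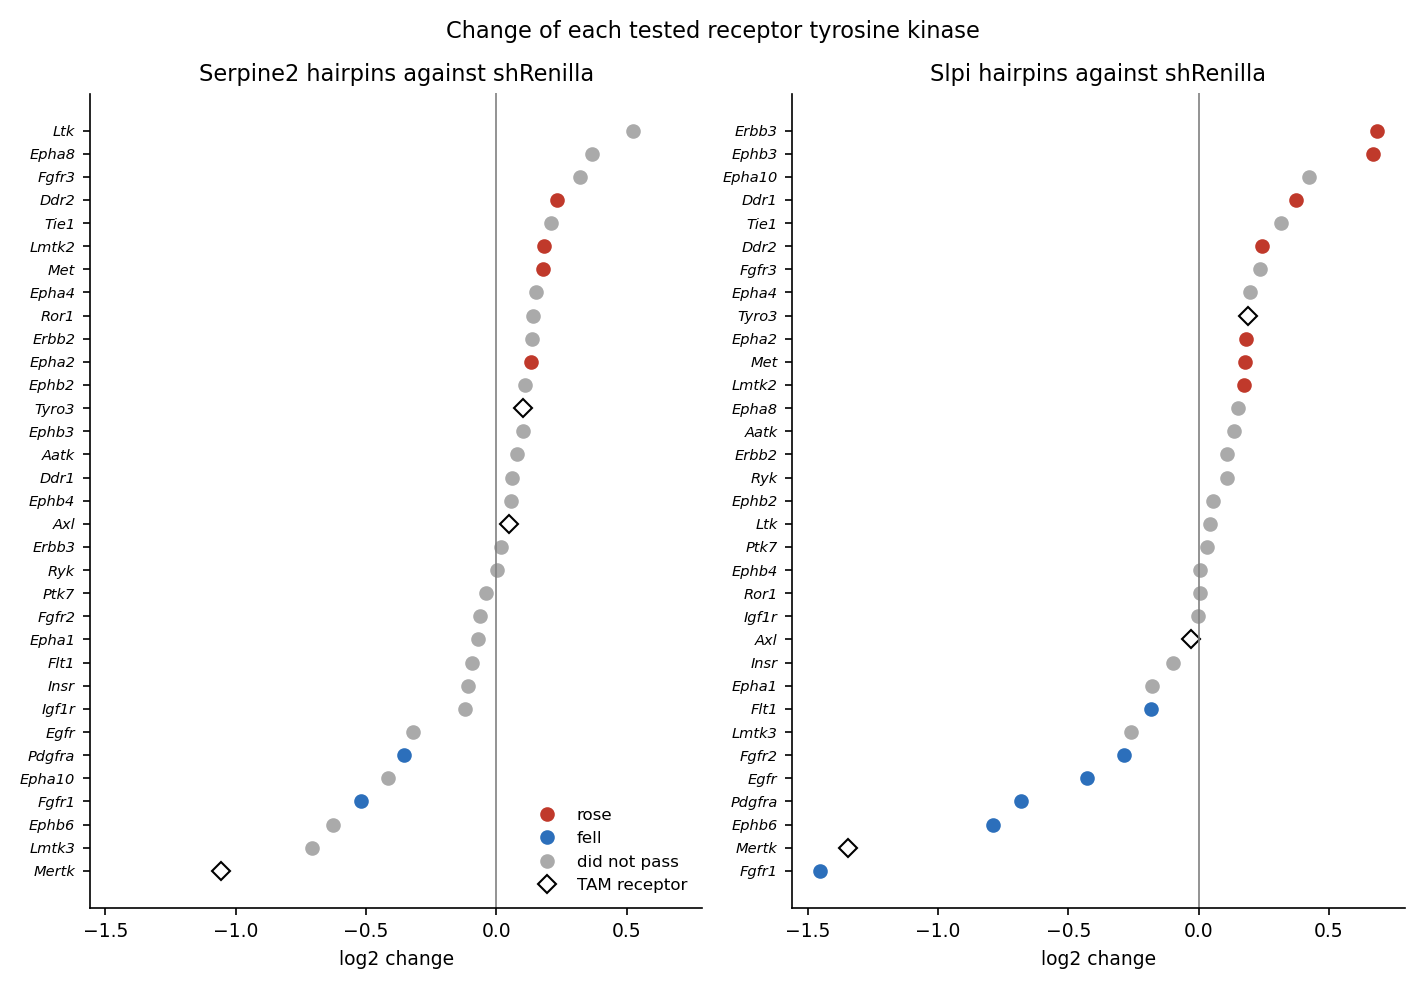
Difference from shRenilla on the log2(normalized reads + 1) scale of each tested receptor tyrosine kinase, Serpine2 hairpins left and Slpi hairpins right (red, rose; blue, fell; grey, did not pass; open diamonds, TAM receptors). Mertk lies at -1.06 and -1.34, Axl at 0.05 and -0.03 and Tyro3 at 0.10 and 0.19.

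Marker genes were read beside these values. All 7 epithelial markers were expressed, summing to 25606 to 27109 normalized reads in Serpine2 libraries and 27338 to 31530 in Slpi libraries, against 21657 to 22243 in shRenilla. The 12 macrophage markers, cells in which Mertk is best known, summed to 338 to 373 and 331 to 414, against 339 to 350 in shRenilla, and most of the sum came from Cd14 (118 to 178), Cd68 (88.9 to 146) and Mrc1 (32.9 to 64.3 over the 10 libraries). Ptprc, Fcgr1, Lyz2 and Tyrobp were under 10 in every library, and the other 5 reached at most 25.3. The 6 markers of other leukocytes summed to 1.16 to 6.15 and 6.05 to 23.2, against 1.05 to 1.10, and the 5 of endothelium to 6.15 to 37.2 and 21.2 to 72.9, against 13.7 to 18.7 in shRenilla. The 6 fibroblast markers summed to 625 to 774 and 459 to 653, against 885 to 904, nearly all of it Pdgfra, with Pdgfrb, Dcn, Lum and Col3a1 under 10 in every library. The epithelial sum, the Pdgfra level and the Rn45s share move with the groups, and their part in the values of Mertk, Tyro3, Pros1 and the lists was not tested.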

How the data were processed

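The 10 libraries were made from total RNA as amplified cDNA (NuGEN Ovation) and sequenced, per the labels' protocols. Bowtie2, HTSeq, DESeq and build mm10 are named in the submitters' processing notes, with no versions or settings. The authors' deposited table holds log2 values for 23479 entries, between a floor of 6.733366499 and 20.357, the form of a variance-stabilizing transformation. No label states it. The planned test assumed normalized values, so the transformation was first inverted. This gave normalized reads and, per library, whole read counts (100% within 0.01 reads), in all 15877431 to 24026620 reads. The scale of the deposited values flattens weakly expressed genes. Amplified reads are not independent molecules, so counting intervals and floors (3 reads for a count of 0) cover counting error only.

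Groups and letters came from sample titles. limma 3.58.1 in R 4.3.3 (eBayes with a mean-variance trend) was fitted to log2(normalized reads + 1) of the 12299 genes averaging 10 or more normalized reads, as 5 group means over 10 libraries. Tests were two-sided, with Benjamini-Hochberg adjustment over those genes. Changes are on that scale, which understates those of weakly expressed genes. The procedure was tested on simulated data. The table has 27 entries with date-like names. GENCODE M21 (GRCm38) gave gene lengths and positions, and promoter windows are from RefSeq on GRCm38.p6, in which all 5 genes matched. Libraries A and B of a group were not copies of each other. Letters A and B did not pair the libraries (correlations of their deviations -0.07 to 0.07 over 10 pairs of groups).

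The members and lists were chosen with earlier results of these data known. Named were all 5 members, up to 4 called genes of each list with the smallest p per target, the 5 genes most like Mertk and the 3 most like Axl by Pearson r among named genes with a mean of at least 50, and the targets. One gene that this rule names is not reported here. Alternatives covered filter, pseudocount, scaling, weights, spread, libraries, pairing and gene length.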

Additional observations from a re-analysis of the deposited data

Results flagged for a closer look

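Pros1 differed between the 2 Slpi hairpins. The difference shSlpi-1 minus shSlpi-2, which is also the test of whether their effects against the shared shRenilla libraries differ, was -0.42 (SE 0.11, limma adjusted p = 0.011). Pros1 had 260 and 223 normalized reads with shSlpi-1 and 360 and 290 with shSlpi-2, against 309 and 313 in shRenilla. The call was lost without shSlpi-1 library B (-0.31, adjusted p = 0.135) or shSlpi-2 library A (-0.27, adjusted p = 0.0917). Slpi itself was at 146 ± 1.09 and 68.3 ± 10.5 (n = 2 each) with the same hairpins. The Rn45s share of reads was 1.89% to 1.96% and 6.88% to 6.91%, and its part in the difference was not tested. Groups of 2 libraries were not searched for single outlying libraries.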

How the results depend on the processing

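Of 131 alternatives to the 11 member results that answer a comparison, leaving out single libraries not counted, 125 kept direction and side of the threshold. Several keep the difference by design: no filter, no trend, compared libraries only, replicate block and hairpin lines as units. The last called 0 genes, so a result not called had to stay so. The count is therefore no measure of robustness. Axl over Slpi hairpins turned to 0.0057 under quantile normalization. Mertk between Slpi hairpins was called on total reads (0.78, adjusted p = 0.026), a scaling that moved the median of all genes by 0.10 there. Pros1 over Slpi hairpins was called without both shSlpi-2 libraries (-0.37, adjusted p = 0.00521). That fit leaves only shSlpi-1 and repeats its difference from shRenilla. Pros1 with shSlpi-1 was not called with no low filter (-0.37, adjusted p = 0.084) or no trend (-0.37, adjusted p = 0.0859), nor Pros1 between Slpi hairpins with the compared libraries only (-0.42, adjusted p = 0.086, fewer samples). The cause was not tested otherwise. Signs also turned under quantile normalization for Axl between Serpine2 hairpins (0.0265), Axl with shSlpi-1 (0.0384) and Pros1 with shSerpine2-2 (-0.0144), and on total reads for Pros1 with shSlpi-2 (-0.0292) and Tyro3 between Slpi hairpins (0.0151). Axl with shSlpi-2 was called on total reads (-0.12, adjusted p = 0.0384). The deposited log2 values shrink Mertk to -0.39 and -0.47. With no filter the median of all genes was 0.16 for Slpi, 0.20 for shSlpi-2 and -0.11 for Serpine2 against Slpi.

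Leaving out each library gave 0.0023 to 0.0957 (Serpine2) and -0.0775 to 0.0159 (Slpi) for Axl, 0.0398 to 0.1672 and 0.1265 to 0.254 for Tyro3, and -0.1156 to -0.096 and -0.2343 to -0.079 for Pros1. Mertk gave 0.12 to 0.45 between targets, -0.31 to -0.21 between Serpine2 hairpins and 0.35 to 1.02 between Slpi hairpins. Pros1 gave -0.48 to -0.26 with shSlpi-1 and -0.58 to -0.27 between Slpi hairpins. Signs also turned for Axl with shSerpine2-1 (-0.0058 to 0.0875), shSlpi-1 (-0.0712 to 0.0222), shSlpi-2 (-0.0838 to 0.0096) and between Slpi hairpins (-0.0021 to 0.0273), for Pros1 between targets (-0.0268 to 0.1284) and with shSlpi-2 (-0.1008 to 0.2097), and for Tyro3 with shSerpine2-1 (-0.0555 to 0.151).

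Letters did not pair libraries. With the letter as a replicate block Axl gave 0.05 (adjusted p = 0.424) and -0.03 (adjusted p = 0.595), Tyro3 0.10 (adjusted p = 0.469) and 0.19 (adjusted p = 0.132), and the block changed no call of a member.

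Genes called with Serpine2 hairpins were 2643, against 1632 with no filter, 1526 with no trend, 4176 with compared libraries only and 766 to 3922 without single libraries (1393 without shRenilla A, 766 without shRenilla B). With Slpi hairpins they were 4281, and 2401 to 5135 without single libraries (2732 without shRenilla A, 2401 without shRenilla B). Taking each hairpin line as 1 unit, limma called 0 genes for Serpine2 (499 at an unadjusted p under 0.05), 0 for Slpi (1281) and 0 between them (419), against 2157 in the fit over libraries. No trend gave 1049 between targets, 507 (shSerpine2-1, from 1288), 712 (between Serpine2 hairpins, from 1805) and 1124 (shSlpi-1, from 2156). No filter gave 703 and 1133, and compared libraries only 2592 and 3599, for shSerpine2-1 and between Serpine2 hairpins. Between Slpi hairpins compared libraries only gave 1252, from 3204. Read depth limits Mertk and Gas6 most.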
